A study of Mus musculus with 6 samples.

Results

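The uncoupling proteins and thermogenic regulators are 10 genes, Ucp1, Ucp2, Ucp3, Dio2, Ppargc1a, Ppargc1b, Prdm16, Kcnk3, Tmem26 and Tfam, out of 54752 genes listed in the deposited tables. They were chosen by name, and each symbol matched 1 gene identifier in the GENCODE M21 annotation of GRCm38. Their RNA was measured in 3T3-L1 cells, an established mouse embryonic fibroblast line that turns into fat cells in culture, with 3 libraries labelled preadipocyte and 3 labelled adipocyte in their titles and cell type. The source name reads Adipocyte for all 6, and the groups follow the titles. All 6 libraries carry the strain label C57BL/6J and the tissue label Embryo, share 1 description of the medium (bovine calf serum, fetal bovine serum and DMI, an abbreviation that is not spelled out) and are labelled as having no treatment. The labels name no transgene or other genetic change and do not say whether the libraries came from separate cultures, so the errors and p-values describe the spread between these libraries, which may be technical. A single cell line in culture is the whole of the model, and the adipocytes compared here had no nerve supply. Per the labels they had no added treatment such as cold or an adrenergic agonist beyond the medium, and what its DMI contained is not stated.

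Brown and beige fat cells make heat by letting protons back across the inner mitochondrial membrane through Ucp1, so that respiration runs without making ATP. In the usual account, noradrenaline acts through beta-adrenergic receptors and cyclic AMP to raise Ucp1, Dio2 and Ppargc1a. Dio2 makes active thyroid hormone inside the cell, the PGC-1 coactivators Ppargc1a and Ppargc1b switch on mitochondrial genes, and Prdm16 sets up the brown and beige programme. Tmem26 is used as a surface marker of beige cells, Kcnk3 is a potassium channel with high expression in brown fat, and Tfam packages and transcribes mitochondrial DNA. Ucp2 and Ucp3 resemble Ucp1 in sequence but are not regarded as heat producers of the same kind, and 3T3-L1 cells are commonly used as a model of white fat.

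In adipocytes, Ucp2, Ucp3, Ppargc1a, Ppargc1b, Kcnk3 and Tfam were higher than in preadipocytes, by 1.39-fold for Tfam up to 319-fold for Ucp3 in the fitted values. The other 4 genes, Ucp1, Dio2, Prdm16 and Tmem26, had at most 1 count in the 3 adipocyte libraries together. The rise of Tfam was lost with 3 of 19 alternative settings. The 6 genes were those with enough counts for edgeR's quasi-likelihood test, and Ucp3 passed that filter through the adipocyte libraries alone, so a count of 6 of 6 supports nothing by itself. Over all 14726 tested genes, 35.7% were higher in adipocytes, 37.9% were lower and 73.5% differed in either direction (edgeR, Benjamini-Hochberg adjusted p at most 0.05). In bulk RNA, fewer cells of a type and less RNA per cell cannot be told apart.

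**Figure D1:**
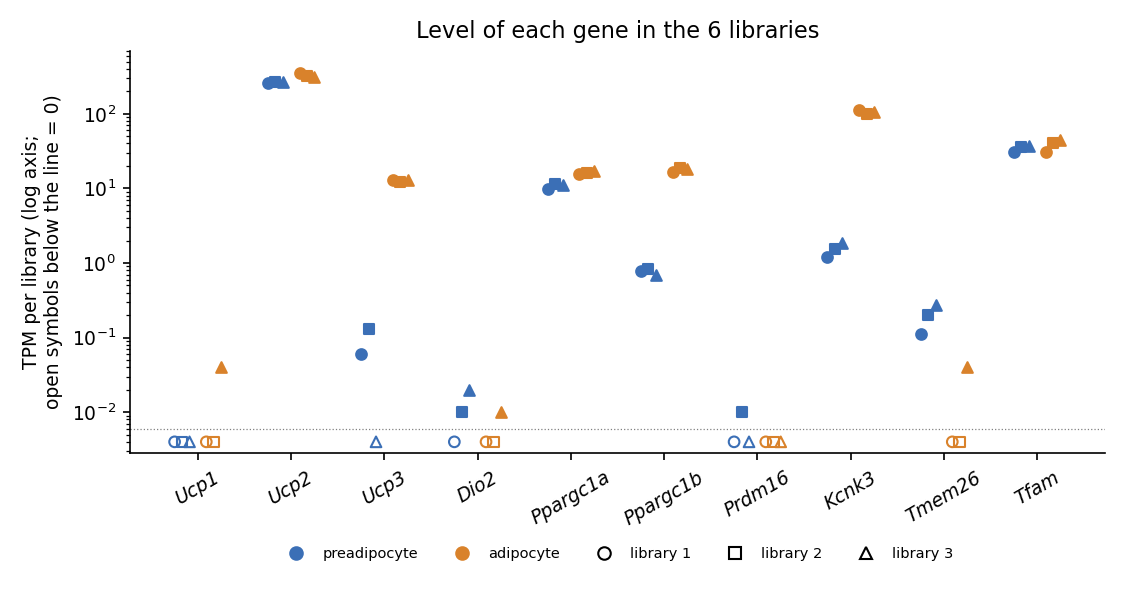
TPM (abundance corrected for transcript length and library total, on a log axis) of the 10 genes in each of the 6 libraries, preadipocytes in blue and adipocytes in orange, with open symbols below the dotted line for libraries at 0. Ucp2 was the most abundant in both states, Ucp3, Ppargc1b and Kcnk3 separated the states most widely, and Ucp1, Dio2 and Prdm16 lay at or near 0 in both.

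Library totals ran from 22496486 to 26314076 expected counts, which are RSEM's estimates of reads per gene. All 8 fat cell markers listed for the check rose and all 8 preadipocyte markers fell. The lists were chosen with earlier results of these data known, so these counts are no independent support. Adipoq measured 0.117 ± 0.080 and 4525 ± 821 CPM (counts scaled to a common library size by TMM, which corrects for composition; SD, n = 3) in preadipocytes and adipocytes. Of 10 leukocyte markers, Adgre1, Itgam and Tyrobp had no count in any library, Ptprc had 1 count in all, and the summed level of the list was 6.48 to 8.05 TPM in preadipocytes and 2.20 to 4.17 TPM in adipocytes. Of 10 skeletal muscle markers, 6 had no count in any library, among them Myod1, Myog, Pax7 and Ckm, and the list summed to 3.38 to 4.01 TPM in preadipocytes and 2.16 to 3.11 TPM in adipocytes. The 8 endothelial markers summed to 0.64 to 1.24 and 0.23 to 0.75 TPM. Adipocyte library 2 stood apart in ribosomal RNA, at 0.903% of counts against 0.0596% to 0.107% in the other 5 libraries, and leaving it out changed no call among the 10 genes.

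The 3 uncoupling protein genes are members of the mitochondrial carrier family, and 2 of them are neighbours. Ucp3 (ENSMUSG00000032942.14, chromosome 7, 100472990 to 100486432, GRCm38, plus strand) ends 6904 bases before the start of Ucp2 (ENSMUSG00000033685.13, chromosome 7, 100493337 to 100502020, plus strand). Ucp1 (ENSMUSG00000031710.4, chromosome 8, 83290352 to 83298452, plus strand) stands alone. The sequences before their RefSeq starts (GRCm38.p6) are given because the genes differed so widely in level, and Dio2 is added as the only window among the 8 found that holds a full cyclic AMP response element. Each line runs 5′ to 3′ in the direction of the gene and ends before the start of the annotated gene, and capitals mark the cyclic AMP response half-site TGACG, the nuclear receptor half-site AGGTCA and the TATA box TATAAA on either strand.
Ucp1, chr8:83290098-83290347, plus strand: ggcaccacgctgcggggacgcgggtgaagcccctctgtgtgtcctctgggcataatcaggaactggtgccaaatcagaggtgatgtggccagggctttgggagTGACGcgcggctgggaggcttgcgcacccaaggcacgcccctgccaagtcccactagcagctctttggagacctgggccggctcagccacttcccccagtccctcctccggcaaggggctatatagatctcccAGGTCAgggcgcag
Ucp2, chr7:100493108-100493336, plus strand: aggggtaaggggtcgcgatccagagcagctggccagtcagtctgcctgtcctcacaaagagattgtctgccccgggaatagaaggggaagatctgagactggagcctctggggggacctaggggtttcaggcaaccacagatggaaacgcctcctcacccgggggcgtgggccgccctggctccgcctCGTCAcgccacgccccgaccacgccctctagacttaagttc
Ucp3, chr7:100472741-100472989, plus strand: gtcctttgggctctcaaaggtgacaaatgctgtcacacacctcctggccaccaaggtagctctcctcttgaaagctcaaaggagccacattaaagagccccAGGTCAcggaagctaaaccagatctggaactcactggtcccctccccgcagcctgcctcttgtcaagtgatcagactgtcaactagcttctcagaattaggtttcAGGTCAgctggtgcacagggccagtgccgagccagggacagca
Dio2, chr12:90739039-90739288, minus strand: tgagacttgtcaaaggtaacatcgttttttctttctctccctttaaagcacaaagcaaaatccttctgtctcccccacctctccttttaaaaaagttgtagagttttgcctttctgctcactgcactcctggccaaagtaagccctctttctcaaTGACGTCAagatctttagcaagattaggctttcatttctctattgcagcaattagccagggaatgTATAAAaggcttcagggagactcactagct

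RefSeq windows were found for 8 of the 10 genes, not for Ppargc1b or Kcnk3. Over the 250 bases before the start, searched on both strands, TGACG was present in Ucp1, Ucp2, Dio2 and Ppargc1a, and in 17.8% of 32851 windows of that length. The palindrome TGACGTCA, which contains TGACG on both strands, was present in Dio2 and in 1.55% of windows. AGGTCA occurred 2 times in Ucp3, at 149 and 44 bases before the start, and 1 time in Ucp1, against 14% of windows with at least 1 match and 1.36% with 2 or more. Neither AGGTCANAGGTCA, a direct repeat that holds AGGTCA 2 times, nor TCAAGGTCA, which also holds it, was present in any of the 8. CCGGAA, the core of ETS factor sites, was present in Tfam and in 12.0% of windows, the NRF1 motif in none of the 8 and in 3.74%, and TATAAA in Dio2 and in 12.4%. A match is a run of letters and not evidence of binding, and its absence says only that these letters are not in this window. For Dio2 the RefSeq start lies before the M21 start of the gene, and for Ppargc1a it lies 13803 bases before the M21 start of the transcript Ppargc1a-203. For Tfam the RefSeq start lies after the M21 start, so only 14 of the 250 bases come before the annotated gene, and CCGGAA lies inside the gene.

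Ucp1, the uncoupling protein that defines brown fat, was all but absent. It had 0 counts in each preadipocyte library and 0, 0 and 1 counts in adipocyte libraries 1, 2 and 3. A floor of 3 counts summed over the preadipocyte libraries would correspond to 0.0478 TPM, and the exact 95% Poisson upper limit for the single adipocyte count corresponds to 0.0717 TPM. These limits cover counting error only. No 31-base word of Ucp1 transcripts was shared with another gene, so no reads had to be divided between copies.

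Ucp2, a widely expressed relative that carries metabolites and whose part in proton leak is debated, was the most abundant of the 10 genes in both states. Its TPM was 255, 269 and 264 in preadipocyte libraries 1 to 3 and 347, 324 and 314 in adipocyte libraries 1 to 3, so the states did not overlap. In TMM-scaled counts it rose from 157 ± 12.7 to 294 ± 39.2 CPM (SD, n = 3), a log2 fold change of 0.90 (SE 0.11, edgeR adjusted p = 7.51e-05). The size of that rise depended on the scale, at 0.57 with total counts and 0.32 on log2(TPM + 1), and the call held with each. Ucp2 shares an end with Dnajb13, a gene on the opposite strand whose exons overlap it by 305 bases, and without a statement on strand their reads cannot be told apart there. Dnajb13 itself had 18 counts in preadipocytes and 47 in adipocytes, against 12321 and 19899 for Ucp2.

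Ucp3, known mainly from skeletal muscle and brown fat, was present in adipocytes only at levels above a handful of counts. It had 1, 4 and 0 counts in preadipocyte libraries 1 to 3 and 533, 445 and 513 counts in adipocyte libraries 1 to 3. The states did not overlap, and the rise was from 0.066 ± 0.082 to 22.01 ± 1.14 CPM (SD, n = 3). The fitted log2 fold change was 8.32 (SE 0.33, edgeR adjusted p = 4.99e-08), and the ratio of summed counts was 346 with an exact 95% interval of 148 to 1066 for counting error. Preadipocyte library 2 held 4 of the 5 preadipocyte counts, and without it the log2 fold change was 9.84, against 7.73 without preadipocyte library 3, which had none. On log2(TPM + 1), which understates the change of low genes, it was 3.69 and still called. Only 0.883% of tested genes had a fold change as large as that of Ucp3. That rank rests on 5 preadipocyte counts and on a gene that passed the filter through the adipocyte libraries alone, so it describes and supports nothing further.

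Summed over the 3 uncoupling protein genes, Ucp3 made up 0.024% ± 0.024 of TPM in preadipocytes and 3.73% ± 0.21 in adipocytes (SD, n = 3), and Ucp2 made up 96.0% to 96.4% in the adipocyte libraries. Every adipocyte library lay above every preadipocyte library in the Ucp3 share (exact permutation test, two-sided, p = 0.10, the smallest that 3 against 3 can give). Ucp2 was thus 24.1 to 26.9 times as abundant as Ucp3 per transcript length in adipocytes. The deposited gene length, which RSEM averages over transcripts by abundance, was 2351 to 2397 bases for Ucp3 in adipocytes. Since the transcripts of Ucp3 other than the 2448-base Ucp3-201 reach at most 2129 bases, that transcript took at least 69.7% to 83.9% of the estimate per library. C2cd3, the nearest protein-coding gene on the other side of Ucp3, measured 28.2 ± 2.15 and 26.6 ± 2.16 CPM (SD, n = 3) and was not called (log2 fold change -0.08, edgeR adjusted p = 0.45), and it was lower with total counts (-0.41) and on log2(TPM + 1) (-0.42). Gm10603, an antisense gene that crosses the start of Ucp3, was called higher (log2 fold change 1.77, SE 0.17), with 175 and 516 counts in the 2 states.

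**Figure D2:**
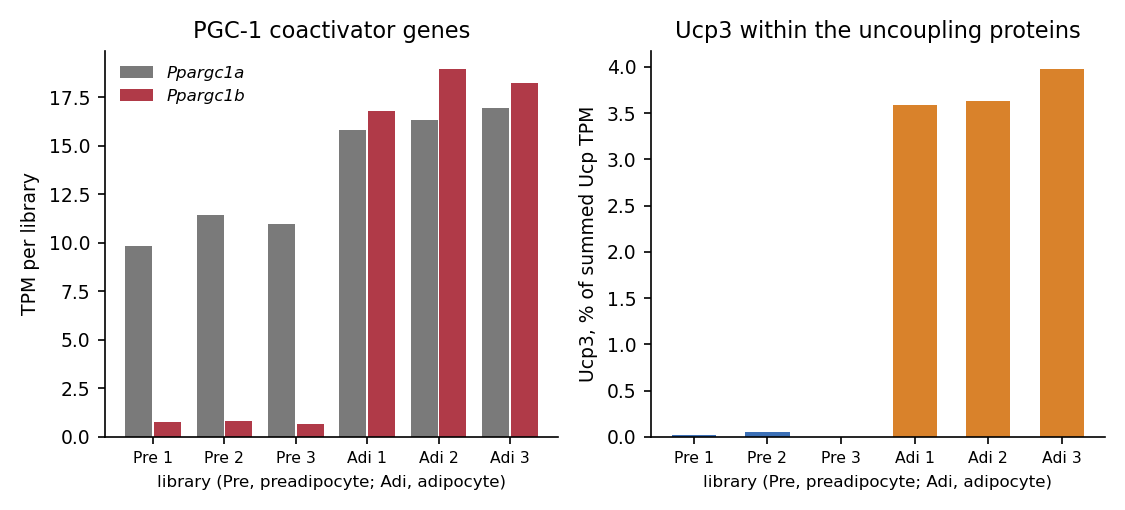
Left, TPM of Ppargc1a (grey) and Ppargc1b (red) per library; right, Ucp3 as a percentage of the summed TPM of Ucp1, Ucp2 and Ucp3 per library, with bars starting at 0. Ppargc1b lay below 1 TPM in the preadipocyte libraries and above Ppargc1a in each adipocyte library, and the Ucp3 share rose from under 0.05% to between 3.59% and 3.98%.

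Ppargc1b (ENSMUSG00000033871.14, chromosome 18, 61298136 to 61400431, minus strand) encodes PGC-1 beta, a coactivator of nuclear receptors that raises mitochondrial and fatty acid oxidation genes. Its counts were 39, 36 and 35 in preadipocyte libraries 1 to 3 and 1089, 1089 and 1123 in adipocyte libraries 1 to 3. The libraries of a state lay close together and the states were far apart, at 1.41 ± 0.13 and 48.8 ± 1.91 CPM (SD, n = 3). The log2 fold change was 5.12 (SE 0.11, edgeR adjusted p = 2.57e-09), a rise of 34.7-fold, and 2.41% of tested genes had one at least as large. On log2(TPM + 1) it was 3.43, also called. The microRNA gene Mir378a, which lies in an intron of Ppargc1b, had 0 counts in all 6 libraries, and the RNA size range of the libraries is not given in the sources used here.

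Ppargc1a (ENSMUSG00000029167.13, chromosome 5, 51454250 to 51567726, minus strand) encodes PGC-1 alpha, the cold-inducible coactivator of the thermogenic programme. Its TPM was 9.84, 11.4 and 11.0 in preadipocyte libraries 1 to 3 and 15.8, 16.3 and 16.9 in adipocyte libraries 1 to 3, without overlap. In TMM-scaled counts it rose from 25.4 ± 1.55 to 59.0 ± 5.31 CPM (SD, n = 3), a log2 fold change of 1.22 (SE 0.094, edgeR adjusted p = 3.55e-06). With total counts the log2 fold change was 0.89 and on log2(TPM + 1) it was 0.56, both still called. The average transcript length spread more among adipocyte libraries, from 4342 to 5111 bases, than among preadipocyte libraries, from 4384 to 4610 bases, and the ranges overlapped.

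The balance between the 2 coactivator genes differed between the states. Per transcript length, the ratio of Ppargc1b to Ppargc1a was 0.078, 0.072 and 0.062 in preadipocyte libraries 1 to 3 and 1.06, 1.16 and 1.08 in adipocyte libraries 1 to 3 (exact permutation test, two-sided, p = 0.10, the smallest possible). A ratio within a library does not depend on how libraries are scaled to each other. The summed TPM of both was 11.5 ± 0.83 in preadipocytes and 34.3 ± 1.52 in adipocytes (SD, n = 3). The third family member, Pprc1, went the other way, from 72.5 ± 5.39 to 39.1 ± 2.02 CPM (SD, n = 3), at a log2 fold change of -0.89 (SE 0.085) and an edgeR adjusted p of 1.43e-05.

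Kcnk3 (ENSMUSG00000049265.7, chromosome 5, 30588170 to 30625271, plus strand) encodes TASK-1, a two-pore potassium channel that sets the resting membrane potential. Its TPM was 1.22, 1.54 and 1.87 in preadipocyte libraries 1 to 3 and 111, 98.6 and 106 in adipocyte libraries 1 to 3. It thereby moved up behind Ucp2 alone among the 10 genes, and the states did not overlap. In TMM-scaled counts it rose from 3.06 ± 0.55 to 297 ± 22.2 CPM (SD, n = 3), a log2 fold change of 6.60 (SE 0.14, edgeR adjusted p = 2.57e-09), and 1.61% of tested genes had one at least as large. The value on log2(TPM + 1) was 5.39, with the call unchanged. In adipocytes its level lay above that of 91.1% of tested genes in TPM. In adipocytes its deposited length put 1.02% to 1.54% of the estimate on the short transcript Kcnk3-202, and in preadipocytes none.

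Of the 31-base words of Kcnk3 transcripts, 5.97% also occur in other genes, 200 of 235 such words on the opposite strand in Gm9899. The exons of Gm9899 overlap those of Kcnk3 by 229 bases, and it rose as well, from 0.343 ± 0.049 to 22.03 ± 3.92 CPM (SD, n = 3). With 27 and 1493 counts in the 2 states against 241 and 20132 for Kcnk3, it held the smaller part of the reads in both, and how the reads in the shared stretch divide was not tested. Of 13 other two-pore channel genes, 12 had too few counts for the test, 4 of them none at all. Kcnk2, the only one tested, went from 1.83 ± 0.25 to 0.176 ± 0.038 CPM (SD, n = 3), with a log2 fold change of -3.33 (SE 0.29) at an edgeR adjusted p of 7.58e-06.

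Tfam (ENSMUSG00000003923.14, chromosome 10, 71225464 to 71238280, minus strand) showed the smallest difference of the 6 tested genes. Its counts were 697, 711 and 772 in preadipocyte libraries 1 to 3 and 800, 799 and 1023 in adipocyte libraries 1 to 3. In TMM-scaled counts these are 27.8 ± 0.45 and 38.7 ± 4.98 CPM (SD, n = 3), which do not overlap, with a log2 fold change of 0.48 (SE 0.10, edgeR adjusted p = 0.0023). In TPM the states did overlap, at 30.5 to 37.1 in preadipocytes and 30.4 to 44.5 in adipocytes. The call was lost with total counts (0.15, edgeR adjusted p = 0.22), on log2(TPM + 1) (0.14, limma adjusted p = 0.40) and on log2(TPM + 0.1) (0.14, limma adjusted p = 0.41). Over all settings the log2 fold change ran from 0.14 to 0.66, highest with the effective length offset, and adjusted p from 8.23e-06 to 0.41. The average transcript length was 1586 to 1738 bases in preadipocytes and 1358 to 1584 bases in adipocytes.

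**Figure D3:**
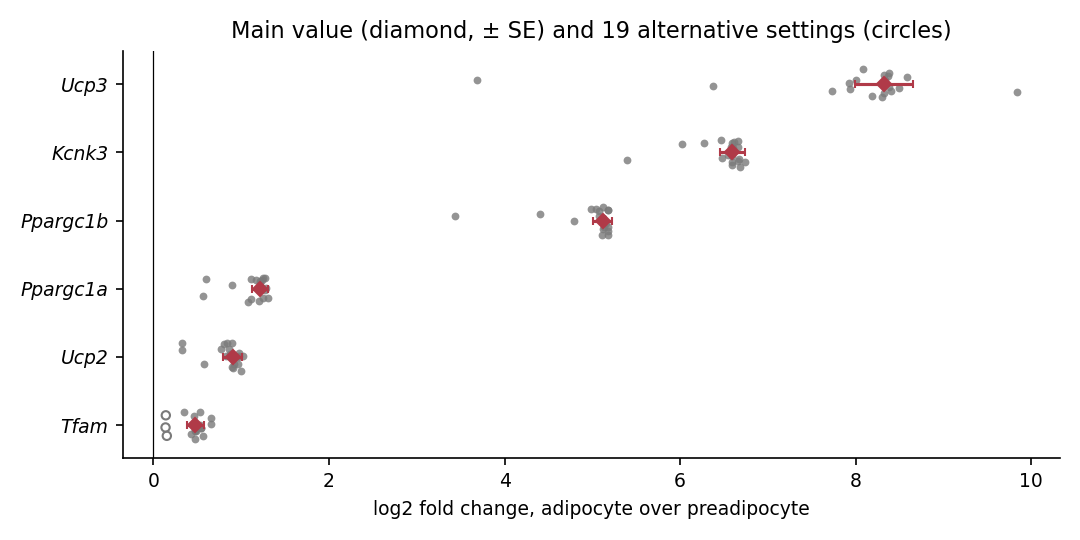
Log2 fold change, adipocyte over preadipocyte, of the 6 tested genes, with the value reported in the text as a diamond with its SE and 19 alternative settings as circles, open where the adjusted p exceeded 0.05. Each value lies above 0, and the open circles are the 3 settings without a call for Tfam.

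Dio2, Prdm16 and Tmem26 had too few counts for the test. Dio2 (ENSMUSG00000007682.6, chromosome 12, 90724552 to 90738438, minus strand), the deiodinase that activates thyroid hormone, had 0, 1 and 2 counts in preadipocyte libraries 1 to 3 and 0, 0 and 1 in adipocyte libraries 1 to 3. Prdm16 (ENSMUSG00000039410.16, chromosome 4, 154316125 to 154636873, minus strand), a zinc finger co-regulator of brown fat identity, had 1 count in preadipocyte library 2 and none in the other 5 libraries. For both genes the states overlapped. The exact 95% Poisson upper limits for the adipocyte counts correspond to 0.0186 TPM for Dio2 and 0.0148 TPM for Prdm16.

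Tmem26 (ENSMUSG00000060044.8, chromosome 10, 68723646 to 68782650, plus strand) was the only one of the 10 with lower values in adipocytes in every library. It had 8, 13 and 9 counts in preadipocyte libraries 1 to 3 and 0, 0 and 1 counts in adipocyte libraries 1 to 3. The ratio of summed counts, preadipocyte over adipocyte, was 25.9 with an exact 95% interval of 4.30 to 1056 for counting error. With the low-count filter removed, edgeR called it lower (log2 fold change -4.24, adjusted p = 0.00032), while Ucp1, Dio2 and Prdm16 were not called there (adjusted p = 0.45, 0.60 and 0.48). The exact permutation test gave p = 0.10 (two-sided), the smallest that 3 against 3 can give. Even in preadipocytes its level was low, at 0.11 to 0.27 TPM.

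The order of the 10 genes by TPM changed between the states. In preadipocytes it was Ucp2, Tfam, Ppargc1a, Kcnk3, Ppargc1b and Tmem26, each separated from the next by non-overlapping libraries, and the ranges of Tmem26, Ucp3, Dio2, Prdm16 and Ucp1 overlapped with that of the next in order. In adipocytes it was Ucp2, Kcnk3, Tfam, Ppargc1b, Ppargc1a and Ucp3, and of these neighbours only Ppargc1b and Ppargc1a overlapped, at 16.8 to 18.9 and 15.8 to 16.9 TPM. The 4 remaining genes lay at or below 0.04 TPM in each adipocyte library. Ucp2 made up 84.6% ± 1.002 of the summed TPM of the 10 genes in preadipocytes and 63.2% ± 1.85 in adipocytes, where Kcnk3 made up 20.3% ± 0.81 (SD, n = 3).

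**Figure D4:**
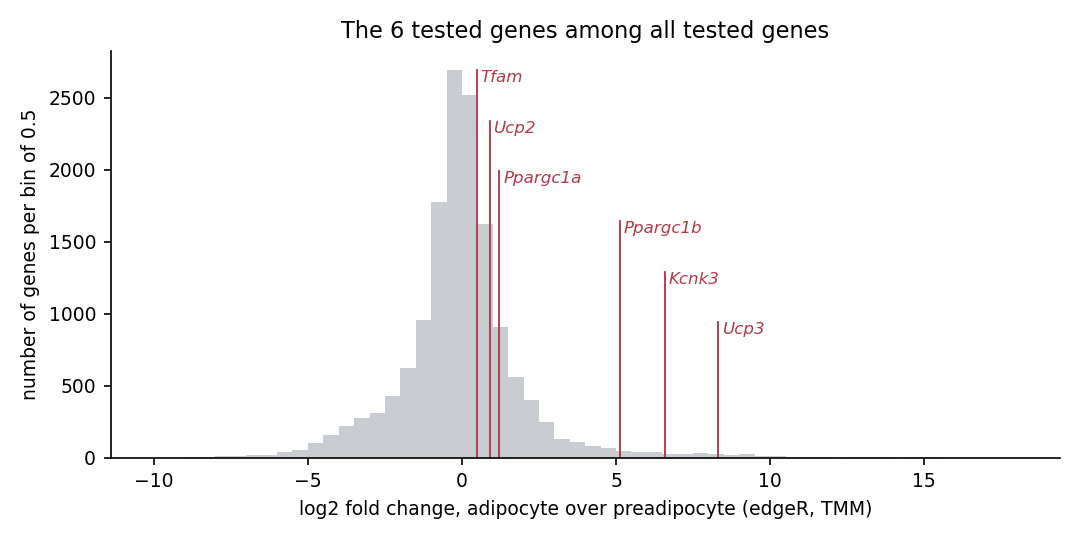
Histogram of the log2 fold change, adipocyte over preadipocyte, of all 14726 tested genes in bins of 0.5, with red lines at the 6 tested genes named. Ucp3, Kcnk3 and Ppargc1b lie in the sparse right tail, and Tfam, Ucp2 and Ppargc1a lie within the body of the distribution.

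The 6 tested genes had log2 fold changes from 0.48 to 8.32, where the median of all tested genes was -0.06. All 6 had non-overlapping CPM ranges, as had 76.5% of tested genes. Other scalings moved the median gene by -0.13 (upper-quartile factors), -0.33 (total counts) and -0.48 (log2(TPM + 1)) on the log2 scale. Against these shifted medians each of the 6 genes still lay higher, Tfam by the least.

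Of 5 tested carriers related to the uncoupling proteins or known for proton leak, 2 were called higher and 3 lower. Slc25a27, Slc25a30 and Slc25a14, named as uncoupling-like carriers, fell by 2.68 (SE 0.18), 1.56 (SE 0.11) and 0.69 (SE 0.13) on the log2 scale in edgeR (adjusted p = 1.22e-06, 1.53e-06 and 0.0011). Slc25a27 went from 5.14 ± 0.43 to 0.80 ± 0.10 CPM (SD, n = 3). The adenine nucleotide carriers, which exchange ADP for ATP and also pass protons, were called higher, Slc25a5 by 3.08 (SE 0.081) and Slc25a4 by 0.49. With total counts or on log2(TPM + 1), 1 of these carriers was called higher in place of 2, and the 3 falls remained in number. The median over the 5 tested carriers was -0.69.

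Brown and beige fat markers were called in both directions, with 9 higher and 4 lower of 13 tested and 9 of 22 with too few counts. The numbers higher and lower were 9 and 4 under every alternative setting. Cox8b, a cytochrome oxidase subunit of brown fat and muscle, had 0 counts in preadipocytes and 5529 in adipocytes, at least 2136-fold higher against a floor of 3 counts over the group. Cidea, a lipid droplet protein, had 1 count in preadipocytes against 283 in adipocytes, 328 times as many after scaling (exact 95% interval 58.4 to 13001). Ebf2, a transcription factor of brown precursors, rose from 8.15 ± 0.75 to 17.9 ± 2.02 CPM (SD, n = 3). Among the 4 called lower, Eva1a had 258 counts in preadipocytes and 0 in adipocytes, at least 74.2-fold lower. Eya1 fell from 80.2 ± 3.74 to 6.92 ± 1.03 CPM and the nucleoside transporter gene Slc29a1 from 285 ± 31.4 to 32.1 ± 5.22 CPM (SD, n = 3). Zic1, Lhx8, Tbx1 and Tnfrsf9 had at most 5 counts in all 6 libraries together. The list's median was 1.81, and summed over the list the level was 426 to 463 TPM in preadipocytes and 750 to 959 TPM in adipocytes. Cox8b carried that difference: without it the sum was 426 to 463 TPM in preadipocytes and 287 to 310 TPM in adipocytes, lower in each adipocyte library. Slc29a1 in turn held most of the preadipocyte sum, at 347.17 to 386.63 TPM, against 26.65 to 32.67 TPM in adipocytes. Cox7a1 held most of the adipocyte sum without Cox8b, at 177.19 to 189.31 TPM, against 0 to 0.68 TPM in preadipocytes. The sums thus depend mostly on Cox8b, Cox7a1 and Slc29a1 and do not describe the rest of the list.

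Genes of adrenergic and thyroid hormone input moved in both directions: 9 of 17 tested were higher, 7 were lower, with a median log2 fold change of 0.28. Adrb3, the beta-adrenergic receptor of fat cells, had the largest rise, with 336 ± 36.8 CPM (SD, n = 3) in adipocytes and 2 counts in preadipocytes. Adrb1 was called higher as well, at 1.73 ± 0.15 CPM (SD, n = 3) in adipocytes. The protein kinase A genes went both ways: Prkaca and Prkar2b were called higher, up by 1.78 and 2.57. Prkacb and Prkar1a were called lower, at log2 fold changes of -0.54 and -0.35. Adcy3, an adenylyl cyclase, had the largest fall, with a log2 fold change of -1.80 (SE 0.11) and an edgeR adjusted p of 8.04e-07. Thra, the main thyroid hormone receptor gene here, fell by 0.88, and Thrb, Dio1 and Dio3 had 3, 1 and 0 counts in all libraries together. With the replicate number as a block 9 were higher and 8 lower, with total counts or upper-quartile factors 8 and 8, and on log2(TPM + 1) 6 were higher and 8 lower.

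Among 22 genes that work with the PGC-1 coactivators, 10 were higher and 2 lower of 19 tested, with a median of 0.24. Lpin1, a phosphatidate phosphatase that also acts as a coactivator, rose from 27.6 ± 1.33 to 889 ± 31.4 CPM (SD, n = 3). Esrra, the nuclear receptor through which PGC-1 proteins act on mitochondrial genes, rose by 2.76 and Ppara by 4.80 on the log2 scale, while Nrf1 and Gabpa, the other classic partners, measured 0.10 and 0.05 and were not called. The levels differed, with Ppara at 0.090 ± 0.025 CPM in preadipocytes and 2.62 ± 0.082 CPM in adipocytes (SD, n = 3). Esrra stood at 188 ± 30.5 CPM in adipocytes (SD, n = 3). Nrip1, which encodes the corepressor RIP140, a brake on Ucp1 in white fat, rose by 3.76, from 21.3 ± 3.45 to 288 ± 40.5 CPM (SD, n = 3). The number lower rose to 4 with the replicate number as a block, to 4 under upper-quartile scaling, to 7 under total counts and to 8 on log2(TPM + 1), with 9 or 10 higher in each.

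Partners and co-regulators of Prdm16 were called higher in 7 and lower in 7 of 18 tested genes, with a median of -0.04. Cebpa rose by 5.10 (SE 0.13) and Twist1, an inhibitor of PGC-1 alpha in brown fat, fell by 2.57 (SE 0.073), from 193 ± 5.91 to 32.4 ± 1.28 CPM (SD, n = 3). Mecom, the closest relative of Prdm16, fell by 0.93. Irf4, a transcription factor that partners PGC-1 alpha, was called higher, from 0.361 ± 0.146 to 9.91 ± 0.983 CPM (SD, n = 3). With total counts or on log2(TPM + 1) 6 were higher and 11 lower.

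The machinery of mitochondrial DNA transcription and replication, in which Tfam works, was called higher in 14 and lower in 1 of 21 genes, all tested, with a median log2 fold change of 1.24. Lonp1, the matrix protease that degrades Tfam, had the largest rise, from 124 ± 16.03 to 606 ± 88.3 CPM (SD, n = 3). The mitochondrial RNA polymerase gene Polrmt and the transcription factor gene Tfb2m rose by 1.52 and 1.35, more than the 0.48 of Tfam, a difference that was not tested. Rnaseh1 was the only gene of the list called lower (-0.66, SE 0.13, edgeR adjusted p = 0.0013). The number lower was 2 with the replicate number as a block, 3 under upper-quartile scaling, 4 under total counts and 6 on log2(TPM + 1), with 12 to 14 higher in each.

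**Figure D5:**
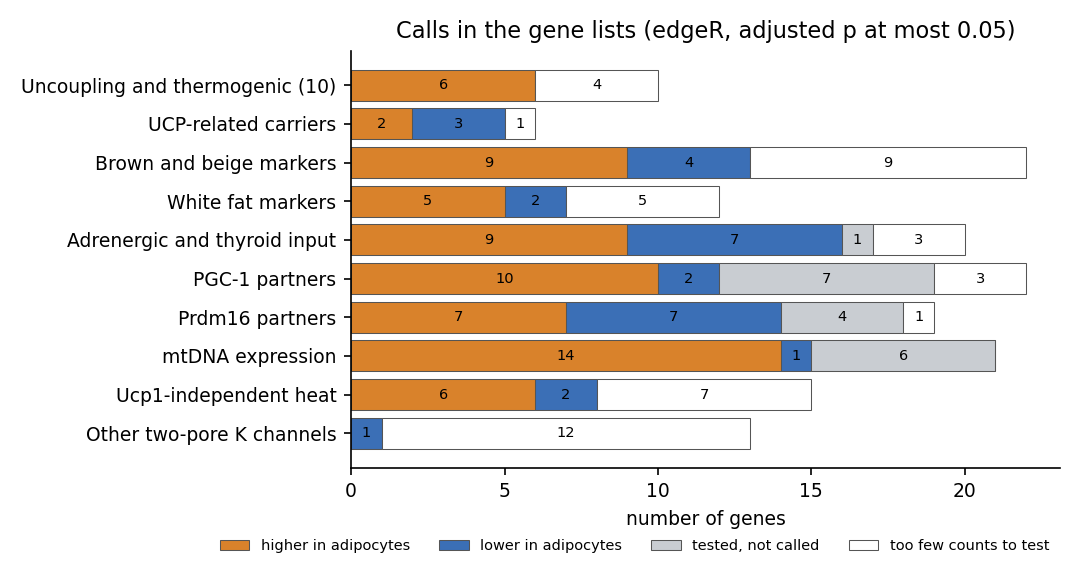
Number of genes per list called higher in adipocytes (orange), called lower (blue), tested and not called (grey), or with too few counts to test (white). The list of mitochondrial DNA expression had 14 higher and 1 lower, whereas the Prdm16 partners had 7 of each. Over all 14726 tested genes, 35.7% were higher and 37.9% lower.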

How the data were processed

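RNA was measured by sequencing in 6 libraries, 3 per state, grouped by their titles. Per the file headers, the authors deposited 1 table per library of genes with their expected count, TPM, FPKM and 2 lengths, of which FPKM was not used here. RSEM, Bowtie, Bowtie2 and DESeq2, and the builds GRCm38 and mm10, are named without version or role per the submitters' processing notes, and strandedness is not given in the sources used here. The deposited expected counts share out ambiguous reads and carry no scaling for depth. TPM, as deposited, sums to the same total in every library.

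Identifiers without version were matched to GENCODE M21 (54723 of 54752). Expected counts were rounded to whole numbers, filtered by filterByExpr, scaled by TMM and tested across all genes with edgeR 4.0.16 (R 4.3.3), its quasi-likelihood F-test and Benjamini-Hochberg adjustment at 0.05, with the state as the only term. The SE of a log2 fold change is its absolute value divided by the square root of the F statistic. It is not a separately fitted error, and for genes with few counts the count interval is the wider guide. On counts simulated for 14726 genes of this comparison, the test recovered 88% of 100 genes changed 2-fold and 98% of 100 changed 4-fold. The simulation used preadipocyte means, drew the changed genes only from those above a minimum mean count, and changed far fewer genes than were called in the data. Recovery of genes with few counts, and scaling where most genes change, were therefore not tested. Levels were compared between genes in TPM, and genes with few counts were given exact 95% Poisson or conditional binomial intervals. Alternatives used limma 3.58.1, DESeq2 1.42.0, other factors, filters and lengths, and each library left out in turn. Same-numbered libraries deviated together (correlations across genes 0.66, 0.30 and 0.26, all over 0.1), but preadipocyte library 2 correlated more with adipocyte library 3 (0.45) than with its own number. The labels state no pairing, and a fit with the number as a block was run too.

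The 10 genes and the 14 lists were chosen with earlier results of these data known. By rule, the 10 genes were named, with the called gene of largest rise and of largest fall per list among those with at least 5 CPM in the higher state, the most abundant gene where there was none, and Adipoq, Dlk1, Slc25a14, Slc25a27 and Slc25a30. Dlk1 went from 3245 ± 531 to 141 ± 27.0 CPM (SD, n = 3). Neighbouring genes were chosen by position, and other genes after their values were seen. The values of 1 gene of the adrenergic list are not reported here.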

Additional observations from a re-analysis of the deposited data

How the results depend on the processing

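The 6 higher calls among the 10 genes held in number under 16 of 19 alternatives, and 5 were higher with total counts, limma on log2(TPM + 1) and limma on log2(TPM + 0.1), which lost Tfam. Leaving out each library in turn gave 6 higher and 0 lower throughout. Without the low-count filter 1 of the 10 genes, Tmem26, was lower. Over all genes, 5252 were higher and 5575 lower, and 3266 were higher with limma on log2(TPM + 1) and 3248 with limma on log2(TPM + 0.1), both of which change unit and test together. The share of calls that were higher was 48.5%, against 34.3% with total counts, 28.2% on log2(TPM + 1) and 28.1% on log2(TPM + 0.1). The replicate block gave 6 higher and 0 lower among the 10 genes and changed no call among them, though it raised the number of lower genes in 3 lists as given beside them, with Tfam at 0.47 (edgeR adjusted p = 4.91e-05). C2cd3 (-0.08) turned to 0.030 with the effective length offset and to 0.028 with that offset and the block, and was called in neither. The cause of these shifts was not tested. Depth limits Ucp1, Dio2 and Prdm16, each at 3 counts or fewer per state.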

Other observations

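Routes of heat production that do not need Ucp1 were called higher in 6 and lower in 2 of 8 tested genes, with a median log2 fold change of 1.06 and 7 of 15 genes with too few counts. Pck1, whose enzyme feeds glycerol synthesis, had 0 counts in preadipocytes and 4014 in adipocytes, at least 1551-fold higher. The calcium pump genes Atp2a2 and Atp2a3 were called higher, Atp2a2 by 0.53 on the log2 scale. Creatine cycling genes did not rise together: the transporter gene Slc6a8 fell from 131 ± 6.15 to 30.1 ± 3.00 CPM and Ckb from 1.27 ± 0.13 to 0.29 ± 0.12 CPM (SD, n = 3), Gamt rose by 1.19, and Gatm, Ckmt1 and Ckmt2 had 1, 0 and 2 counts in all libraries. Alpl, of the same list, was also called higher, by 3.77 on the log2 scale, with 7 counts in preadipocytes and 87 in adipocytes. On log2(TPM + 1) 4 of the list were higher and 2 lower.

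White fat markers were called higher in 5 and lower in 2 of 7 tested genes, with a median of 1.68 and 5 of 12 genes with too few counts. Of those 5, Tcf21 had no count in any library, and Hoxc9 had 35 counts in preadipocytes and 2 in adipocytes. Hoxc8, Hoxc10 and Slc7a10 had 1, 5 and 2 counts in preadipocytes and 0, 0 and 1 in adipocytes. Retn, which encodes the hormone resistin, had 3 counts in preadipocytes against 83162 in adipocytes, 32129 times as many after scaling (exact 95% interval 10994 to 155802). Lep, which encodes leptin, had 0 and 1019 counts, at least 394-fold higher. Dpt, a matrix protein gene, fell from 153 ± 11.8 to 29.9 ± 3.34 CPM (SD, n = 3). The summed level of the list was 290 to 302 TPM in preadipocytes and 2727 to 3575 TPM in adipocytes. Retn and Agt held most of the adipocyte sum, at 1966.23 to 2498.43 and 614.21 to 922.94 TPM. The sum therefore does not describe the rest of the list. On log2(TPM + 1) 4 were higher and 2 lower.

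Of the other marker lists, the largest rise among fat cell markers was that of Cfd (3527 ± 876 CPM in adipocytes, SD, n = 3) and the largest fall among preadipocyte markers that of Gata2 (16.003 ± 0.53 to 0.27 ± 0.12 CPM, SD, n = 3). Among leukocyte markers Csf1r and Cd14 were called lower, with Cd14 at 3.75 ± 0.72 and 2.04 ± 0.79 CPM (SD, n = 3), a call lost without preadipocyte library 1. Among muscle markers Acta1 was called higher, at 0.090 ± 0.060 and 1.54 ± 0.41 CPM (SD, n = 3), and Tnnt3 lower. Pecam1 was the most abundant endothelial marker, at 0.515 ± 0.207 and 0.381 ± 0.198 CPM (SD, n = 3), and neither it nor Vwf was called.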
